A study of Mus musculus with 4 samples.

Results

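Ly6Clow monocytes from the spleens of miR-146a-deficient mice (KO) were set against the same cells of control mice (WT), with 1 array on each side. Of the 18194 genes that had a probe set of their own, 6964 reached a signal of 100 on whichever of the 2 Ly6Clow arrays was brighter, and these are the genes described here. Of these, 6926 were also Present on that array, the deposited detection call for a signal above background. The KO mice were labelled miR-146a-/- with the strain label B6(FVB)-Mir146tm1.1Bal/J, and the WT mice were labelled C57BL/6 and described as control littermates. In both groups CD11b+ spleen cells were pulled out on magnetic beads, labelled with an antibody to Ly6C and passed through a flow sorter, which collected CD11b+Ly6Clow cells. Each array carried RNA pooled from several mice, whose number, age and sex the labels do not give. The deletion is present in every cell of the KO mouse, so it is not limited to monocytes. On one reading of the protocol, KO spleens were lysed in a red cell buffer named ACT and WT spleens in one named RBC. Genotype, strain background and buffer then cannot be told apart. A second pair of arrays, KO over WT for Ly6Chigh monocytes sorted in the same way, shares no array with the Ly6Clow pair and is given beside it.

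miR-146a is induced by NF-kB, the transcription factor that drives inflammatory genes, and represses Traf6 and Irak1, which carry signals of Toll-like and interleukin 1 receptors to NF-kB. It is known as a brake on this pathway in myeloid cells. Ly6Clow monocytes arise from Ly6Chigh monocytes, need the nuclear receptor Nr4a1 and patrol the inner wall of blood vessels, while Ly6Chigh monocytes enter inflamed tissue.

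A microRNA pairs with target transcripts mainly through its seed, bases 2 to 8. The mature sequence that the KO mice lack and that of its paralogue miR-146b, encoded on another chromosome, are printed 5′ to 3′ from RefSeq (GRCm38.p6) with the seed in capitals, since both carry the same seed. The first lies at chr11:43374435-43374456 on the minus strand and the second at chr19:46342790-46342811 on the plus strand.
mmu-miR-146a-5p: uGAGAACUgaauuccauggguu
mmu-miR-146b-5p: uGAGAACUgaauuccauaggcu
The pair is identical in 20 of 22 bases, and these 2 are the only sequences with this seed among the 1679 mature miRNAs in the table. The level of Mir146 was not analysed here, and the deletion could therefore not be checked in these arrays.

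The arrays, Affymetrix GeneChip Mouse 430_2, report a linear signal intensity for each probe set, scaled by the authors so that the mean without the lowest and highest 2% was the same on all 4 arrays. Between 46.8% and 48.6% of probe sets were called Present on the 4 arrays. The signal ratio of 3 prime to 5 prime probe sets, a mark of RNA integrity, was 1.23 for actin and 0.950 for Gapdh on the KO Ly6Clow array, against 1.42 and 1.12 on the WT Ly6Clow array. Since each group has a single array of pooled RNA, no value has an error or a p-value, and the spread between mice is not known. Differences are given as log2 of KO signal over WT signal, and a gene is said to rise or fall when it differed 2-fold or more (a log2 of at least 1 in size), and was Present with a signal of 100 or more on the brighter array.

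The sorted fraction carried the markers of its label on both arrays. All 20 markers of Ly6Clow monocytes on the array were Present on both, with summed signals of 79022.5 in KO and 83741.1 in WT Ly6Clow cells. Nr4a1 had signals of 6784.6 in KO and 7224.0 in WT, and Cx3cr1, the fractalkine receptor of patrolling monocytes, 3581.9 and 3633.1. Treml4, a receptor of the same subset, had 7708.9 in KO and 7616.6 in WT. None of the 20 differed 1.5-fold, and their median log2 was -0.07. Of the 20, 5 lay above 0 and 15 below, against 42.9% above 0 over all 6926 genes. In the Ly6Chigh pair 2 of the 18 kept members lay above 0, and the median was -0.38. F13a1, a clotting factor gene that marks Ly6Chigh monocytes, had 42.9 in KO and 38.0 in WT Ly6Clow cells, against 5796.1 in KO and 6510.7 in WT Ly6Chigh cells. Vcan, another Ly6Chigh marker, was Absent on both Ly6Clow arrays. Most Ly6Chigh markers were not absent, however, as 14 of the 16 on the array were Present in KO and 13 in WT Ly6Clow cells. Their summed signals were 22318.0 in KO and 23996.6 in WT Ly6Clow cells, against 55701.3 in KO and 60235 in WT Ly6Chigh cells. Itgam, which encodes the CD11b used in the sort, had 466.7 in KO and 439.5 in WT (log2 0.09). Ccr2, by which Ly6Chigh monocytes leave the marrow, had 865.3 in KO and 1126.5 in WT (log2 -0.38). Its other kept probe sets gave 0.28 and -0.52, so the probe sets of Ccr2 ran both ways.

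The KO and WT Ly6Clow arrays were close to each other for nearly all genes. Of the 6926 genes, 20 passed the 2-fold rule (0.289%), 13 higher in KO (0.188%) and 7 lower (0.101%). The size of the log2 difference had a median of 0.118, and 83.1% of the genes lay within 1.2-fold. In the Ly6Chigh pair the median size was 0.168 and 71.3% lay within 1.2-fold. There the same rule called 28 of 7049 genes (0.397%), 17 higher (0.241%) and 11 lower (0.156%), and 262 differed 1.5-fold (3.72%), 145 higher (2.06%) and 117 lower (1.66%). The spread in Ly6Clow was wider for dim genes, with a median size of 0.160 for brighter signals of 100 to 200 and of 0.0921 from 1000 upwards. At 1.5-fold, 130 genes differed (1.88%), 70 higher (1.01%) and 60 lower (0.866%), and the share was 3.33% in the dimmest of these bins and 0.865% in the brightest. Over all 6926 genes the median log2 was -0.03, and 42.9% had a value above 0.

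**Figure D1:**
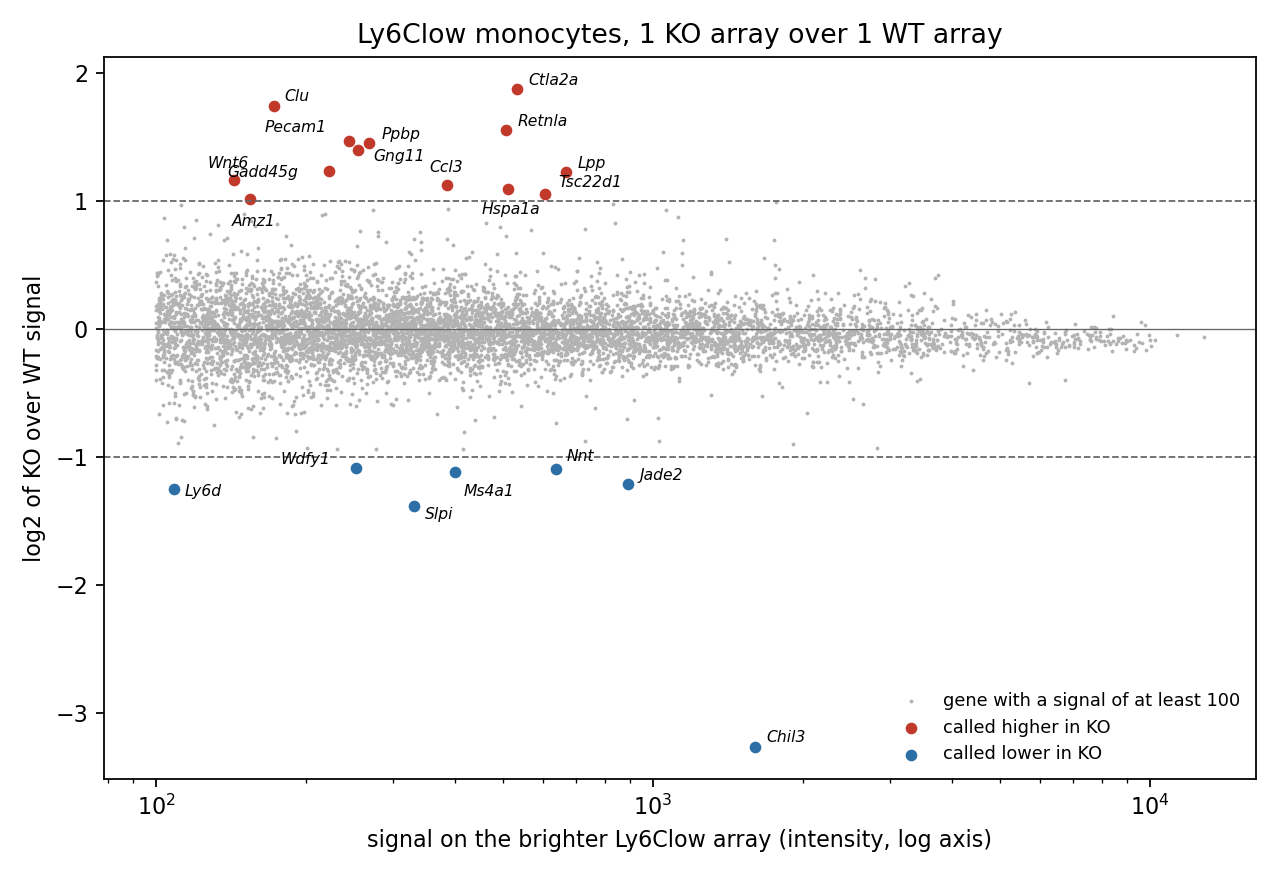
Log2 of KO over WT signal (vertical axis) against the signal on the brighter Ly6Clow array (horizontal log axis) for each kept gene, with the 13 genes called higher and the 7 called lower named and dashed lines at 2-fold. The cloud narrows as signal grows, and Chil3 at -3.26 lies far below every other gene.

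Among the genes that rose in KO Ly6Clow monocytes, Ctla2a, a cysteine protease inhibitor gene, differed most. Its signal was 533.8 in KO and 145.9 in WT Ly6Clow cells (log2 1.87), and 140.1 in KO and 107.3 in WT Ly6Chigh cells. A probe set annotated to both Ctla2b and Ctla2a had 388.0 in KO and 125.1 in WT Ly6Clow cells (log2 1.63). The KO Ly6Clow array was thus the highest of the 4 for both probe sets, and near-identical copies such as this pair can share signal. Clu, which encodes the secreted chaperone clusterin, had 172.4 in KO and 51.5 in WT Ly6Clow cells (log2 1.74), and its other kept probe set gave 1.29. Retnla, a secreted product of macrophages under interleukin 4, had 506.8 in KO and 172.7 in WT Ly6Clow cells (log2 1.55), against 139.8 in KO and 142.6 in WT Ly6Chigh cells. The genotypes thus lay apart in Ly6Clow and together in Ly6Chigh cells for Retnla.

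Pecam1, an adhesion molecule of endothelium, platelets and leukocytes, had 244.7 in KO and 88.3 in WT Ly6Clow cells (log2 1.47) and was Absent on both Ly6Chigh arrays. Ppbp, a chemokine gene of platelets, had 267.9 in KO and 97.9 in WT Ly6Clow cells (log2 1.45), and 93.7 in KO and 58.8 in WT Ly6Chigh cells. Gng11, a G protein gamma subunit, had 254.4 in KO and a Marginal signal of 96.6 in WT Ly6Clow cells, at least 2.63-fold higher in KO. All 3 transcripts were highest on the KO Ly6Clow array. Lpp, a focal adhesion protein gene, had 668.4 in KO and 286.1 in WT Ly6Clow cells (log2 1.22), and 280.8 in KO and 235.7 in WT Ly6Chigh cells. All 6 of its kept probe sets were higher in KO Ly6Clow cells, with log2 values of 0.89 to 1.75, so its brightest probe set was not the one with the largest difference.

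Regulatory and stress genes were among the other increases. Gadd45g, a growth arrest and DNA damage gene, had 223.4 in KO and 94.8 in WT Ly6Clow cells (log2 1.24). Hspa1a, the inducible Hsp70 chaperone, had 510.5 in KO and 239.4 in WT Ly6Clow cells (log2 1.09), and 622.3 in KO and 190.6 in WT Ly6Chigh cells. Both genes were also higher in KO than in WT on the Ly6Chigh arrays. Tsc22d1, a transcriptional regulator induced by TGF-beta, had 605.4 in KO and 291.5 in WT Ly6Clow cells (log2 1.05), against 490.7 in KO and 492.0 in WT Ly6Chigh cells. Its 4 kept probe sets gave 0.75 to 1.55 in Ly6Clow, so all of them were higher in KO there. Ccl3, a chemokine that attracts leukocytes, had 384.5 in KO and 176.3 in WT Ly6Clow cells (log2 1.12), and 445.8 in KO and 332.6 in WT Ly6Chigh cells. Amz1, a metallopeptidase gene, had 154.6 in KO and 76.5 in WT (log2 1.02), and the Wnt ligand gene Wnt6 had 143.3 and 63.8 (log2 1.17). Amz1 sat at the edge of the 2-fold rule, and Wnt6 was the 1 gene of the 20 whose direction was not matched by a change call in the authors' deposited table.

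Chil3 fell furthest in KO Ly6Clow monocytes. Its product is a chitinase-like lectin that myeloid cells secrete, and it had 167.3 in KO and 1603.7 in WT Ly6Clow cells (log2 -3.26, 9.59-fold). The same gene had 5932.9 in KO and 7929.9 in WT Ly6Chigh cells (log2 -0.42), the highest signals of the 4 arrays. A probe set shared by Chil4 and Chil3 gave 76.9 in KO and 670.2 in WT Ly6Clow cells (log2 -3.12). Both probe sets placed the KO Ly6Clow array lowest of the 4. Slpi, a secreted inhibitor of neutrophil serine proteases, had 126.7 in KO and 330.4 in WT Ly6Clow cells (log2 -1.38), and 1267.6 in KO and 1775.1 in WT Ly6Chigh cells. Slpi thus had the order of the 4 arrays seen for Chil3.

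Ms4a1, which encodes the B cell protein CD20, had 184.4 in KO and 399.7 in WT Ly6Clow cells (log2 -1.12), and its other kept probe set gave -0.96. Ly6d, a surface protein of B lineage and plasmacytoid dendritic cells, had 45.6 in KO and 108.5 in WT (log2 -1.25). Jade2, a gene of a histone acetyltransferase complex, had 384.7 in KO and 891.3 in WT Ly6Clow cells (log2 -1.21) and at most 20.7 on the Ly6Chigh arrays. All 3 genes had signals under 100 on both Ly6Chigh arrays, so they were not kept there. Nnt, the mitochondrial transhydrogenase that makes NADPH, had 297.9 in KO and 637.0 in WT Ly6Clow cells (log2 -1.10), and 401.5 in KO and 790.9 in WT Ly6Chigh cells. Wdfy1, an endosomal adaptor in Toll-like receptor signalling, had 119.1 in KO and 253.1 in WT Ly6Clow cells (log2 -1.09), and 158.8 in KO and 416.8 in WT Ly6Chigh cells. Nnt and Wdfy1 were lower in KO in both subsets, and their other kept probe sets gave -1.34 and -1.56 in Ly6Clow.

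**Figure D2:**
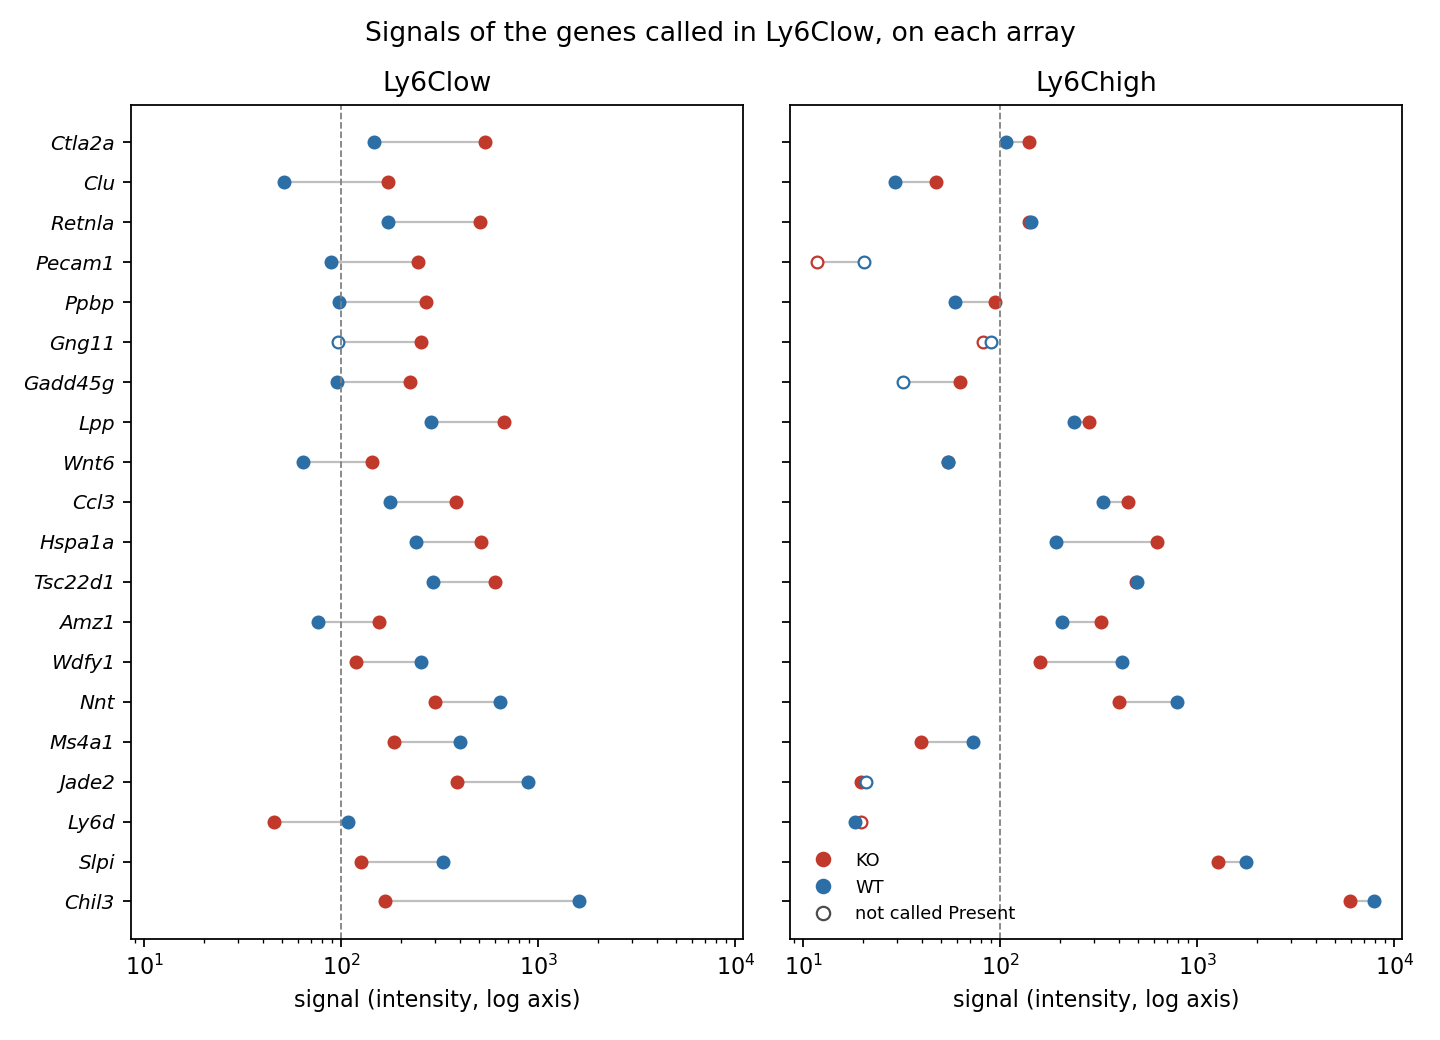
Signals (log axis) of the 20 called genes on the KO and WT arrays of Ly6Clow (left panel) and Ly6Chigh monocytes (right panel), 1 array each, with open circles where the probe set was not called Present and a dashed line at a signal of 100. Chil3 had 167.3 in KO and 1603.7 in WT Ly6Clow cells and 5932.9 in KO and 7929.9 in WT Ly6Chigh cells.

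Genes on either side of the 2-fold limit had close values. Just inside it lay Amz1 and Tsc22d1 among higher genes and Wdfy1 and Nnt among lower ones. Just outside lay Hspa1b at 0.99, Kdm6b, a histone H3K27 demethylase gene, at 0.98 and Sema4b, a semaphorin gene, at 0.97. On the other side were Nup155, a nuclear pore gene, and Cd24a, a surface glycoprotein of B cells and granulocytes, both at -0.94, and S100a9 at -0.93. Sema4b and Nup155 were given as not changed in both pairs by the authors' deposited table.

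All probe sets of a gene were then compared. Among 12948 kept probe sets that were Present on the brighter array, 66 differed 2-fold (0.51%), 46 higher in KO (0.355%) and 20 lower (0.154%). At 1.5-fold, 431 of these probe sets differed (3.33%), 298 higher (2.3%) and 133 lower (1.03%). Of the 66, 50 had a single gene symbol, 4 had several and 12 had none. Beside the 20 that stand for the called genes, 8 further ones belonged to called genes, and 22 belonged to 19 genes that were not called (16 higher and 3 lower). For 15 of these 19 genes the brightest probe set differed by less than 1.5-fold, so the count of called genes depends on which probe set stands for a gene. Across the 2779 genes with 2 or more kept probe sets, the range of log2 values within a gene had a median of 0.20 and a 90th percentile of 0.53.

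In 18 genes every kept probe set differed 1.5-fold or more in 1 direction, 9 higher (0.324% of 2779) and 9 lower (0.324%). Higher in KO were Clu, Lpp, Tsc22d1, Hspa1b, Ide, Cox7c, Ccdc69, Kdm6b and Ets1. Ide, the insulin-degrading enzyme, had log2 values of 0.80 to 1.11 over 3 probe sets, and its brightest had 491.5 in KO and 282.2 in WT. Kdm6b had 0.61 to 0.98 over 3 probe sets, with 829.1 in KO and 420.5 in WT on the brightest. Ets1, a lymphoid and monocyte transcription factor, had 0.68 and 0.69, with 1750.1 in KO and 1081.3 in WT on the brighter of its pair. Cox7c, a subunit of cytochrome c oxidase, had 0.75 and 1.08, and Ccdc69, a coiled-coil protein gene, 0.87 and 0.94. Lower in KO were Igha, Wdfy1, Nnt, Ms4a1, Rgs18, Prdx4, Cdkn2aipnl, Idi1 and Slc25a4. Rgs18, a regulator of G protein signalling in platelets and myeloid cells, had log2 values of -0.81 and -0.71, with 238.3 in KO and 417.1 in WT on the brighter. Slc25a4, the mitochondrial ADP/ATP carrier, had -0.93 to -0.64 over 3 probe sets, and the peroxidase gene Prdx4 had -0.84 and -0.60.

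Immunoglobulin transcripts were also lower in KO on several probe sets. Igha, the heavy chain of IgA, was Absent in KO Ly6Clow cells at 4.3 and 4.5 and Present in WT at 127.0 and 123.1, at least 4.25-fold and 4.12-fold lower in KO against the 95th percentile of Absent signals on the KO array (29.9). A further Igha probe set had 25.6 in KO and 95.5 in WT. Each of the 3 was thus lower in KO, and all were Absent on both Ly6Chigh arrays. The kappa light chain is read by probe sets that carry several gene symbols, of which one had 674.1 in KO and 1530.2 in WT (log2 -1.18) and one had 115.7 and 295.3 (log2 -1.35). Ighm, the heavy chain of IgM, had 2120.9 in KO and 2393.0 in WT (log2 -0.17), so the immunoglobulin genes did not all differ to the same degree. In RNA from sorted cells, fewer cells of a type and less RNA per cell cannot be told apart.

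Paip1, which encodes a protein that binds the poly(A)-binding protein, had probe sets that disagreed. One had 153.7 in KO and 23.5 in WT Ly6Clow cells (log2 2.71), and 135.2 in KO and 21.0 in WT Ly6Chigh cells (log2 2.69). Another had 95.8 in KO and 27.6 in WT Ly6Clow cells (log2 1.80). Its brightest had 190.0 in KO and 173.0 in WT (log2 0.14), so Paip1 is not among the 20 called genes. In the RefSeq gene order Paip1 and Nnt are next to each other on chromosome 13, with 0 protein-coding genes between them.

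None of the targets reported for miR-146a in the literature differed 2-fold. All 19 on the array were kept, 11 lay above 0 and the median log2 was 0.06, against 42.9% above 0 and a median of -0.03 over all 6926 genes. In Ly6Chigh monocytes 9 of the 19 lay above 0 and the median was -0.03. Traf6, the ubiquitin ligase below Toll-like receptors, had 153.3 in KO and 124.0 in WT Ly6Clow cells (log2 0.31), and 160.6 in KO and 154.6 in WT Ly6Chigh cells (0.05). Irak1, the kinase upstream of Traf6, had 1423.7 in KO and 1337.4 in WT Ly6Clow cells (log2 0.09), and its other kept probe sets gave 0.48, 0.30 and 0.20. All 4 Irak1 probe sets were thus higher in KO Ly6Clow cells, none of them 1.5-fold. Irak2, a related kinase, was at 0.21 and Relb, the NF-kB subunit, at 0.26 (222.5 in KO and 185.6 in WT). Card10, a scaffold that links receptors to NF-kB, was the 1 target at 1.5-fold, with 289.7 in KO and 181.2 in WT Ly6Clow cells (log2 0.68) and 111.1 in KO and 80.3 in WT Ly6Chigh cells. At the other end was Camk2d, a calcium-dependent kinase, at -0.33.

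Subunits and feedback inhibitors of NF-kB had 12 of 16 kept genes above 0, with 0 called and a median log2 of 0.11 (0.06 in Ly6Chigh). Tnip1, which helps the deubiquitinase A20 to restrain NF-kB, had 1404.9 in KO and 864.1 in WT Ly6Clow cells (log2 0.70). Bcl3, an atypical IkB protein, was at 0.53 and Tnfaip3, which encodes A20, at 0.32 with 1114.4 in KO and 891.0 in WT. Nfkbia, the classical IkB inhibitor, was at -0.12 with 6495.6 in KO and 7038.1 in WT. The members thus lay on both sides of 0, with Tnip1 alone at 1.5-fold.

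Of the NF-kB response genes, 21 of 34 on the array were kept, 17 lay above 0 and the median log2 was 0.29 (0.16 in Ly6Chigh). Ccl3 was the 1 that rose. Ccrl2, a receptor that presents chemerin and is induced by inflammatory stimuli, had 729.7 in KO and 425.2 in WT (log2 0.78). Traf1, a signalling adaptor of TNF receptors, had 708.2 in KO and 481.6 in WT (log2 0.56). Il1b, the inflammatory cytokine, had 3740.3 in KO and 2787.9 in WT Ly6Clow cells (log2 0.42), and 2425.7 in KO and 906.1 in WT Ly6Chigh cells (log2 1.42). Tnf had 199.8 in KO and 158.3 in WT Ly6Clow cells (log2 0.34), and 71.8 in KO and 38.4 in WT Ly6Chigh cells (0.90). For both cytokines the KO signal was the higher in each subset, with a smaller ratio in Ly6Clow cells, and that difference was not tested. Cxcl2, a neutrophil-attracting chemokine, was at -0.15, and Cd40, the costimulatory receptor, at -0.28. This list shares Bcl3, Relb, Nfkb2, Nfkbia, Nfkbie, Nfkbiz and Tnfaip3 with the previous one.

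**Figure D3:**
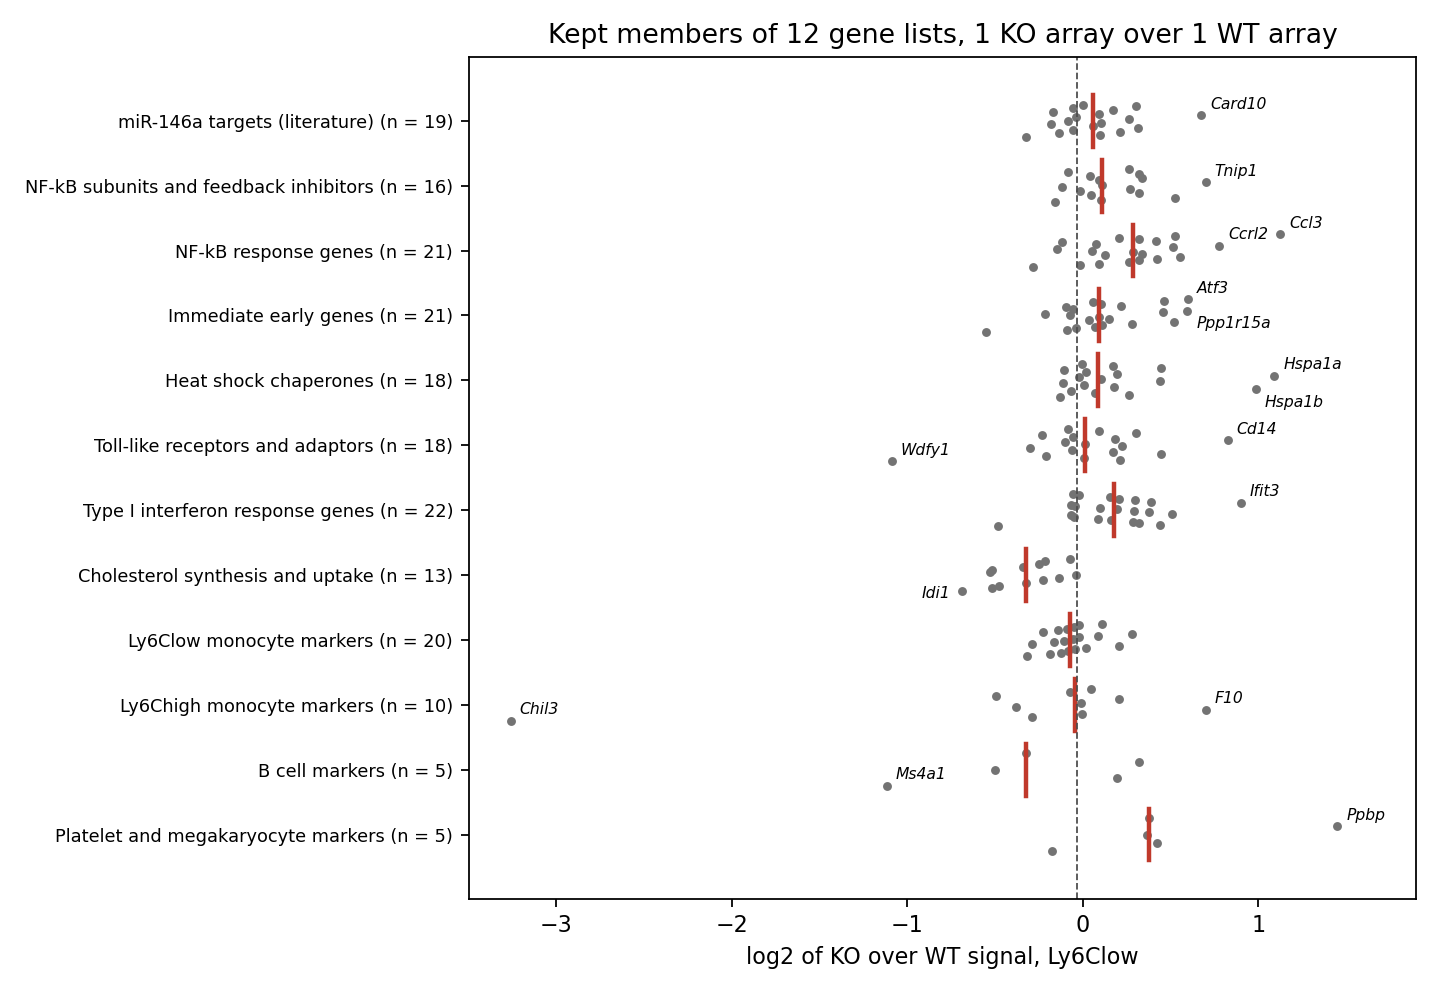
Log2 of KO over WT signal in Ly6Clow monocytes for each kept member (dot) of 12 gene lists, with the list's median (red bar) and the median of all kept genes (dashed line at -0.03). NF-kB response genes have a median of 0.29 and all 13 genes of cholesterol synthesis and uptake lie below 0.

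Toll-like receptors and adaptors had 10 of 18 kept genes above 0 and a median log2 of 0.01. Wdfy1 was the 1 that fell. Cd14, the lipopolysaccharide co-receptor, had 461.3 in KO and 260.0 in WT Ly6Clow cells (log2 0.83), and 2141.0 in KO and 1683.6 in WT Ly6Chigh cells. Tlr2, a receptor for bacterial lipoproteins, was at 0.45 and Tlr4, the lipopolysaccharide receptor, at -0.06 with 232.7 in KO and 242.1 in WT. Tlr1, which pairs with Tlr2, was at -0.30. Receptors and adaptors thus gave no common direction.

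Immediate early genes, which respond within minutes to stimulation or handling, had 14 of 21 kept genes above 0, 0 called and a median of 0.09. Atf3, a stress-induced transcription factor, had 1047.1 in KO and 691.1 in WT Ly6Clow cells (log2 0.60). Ppp1r15a, which restores translation after stress, had 529.1 in KO and 350.0 in WT (log2 0.60). Jun and Junb, subunits of AP-1, were at 0.52 and 0.47, but Egr1, a zinc finger factor of the same response, was at -0.55 with 1726.9 in KO and 2527.3 in WT. Fos, the partner of Jun, had 6166.9 in KO and 5923.5 in WT (log2 0.06). The early genes thus ran both ways.

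Heat shock chaperones had 12 of 18 kept genes above 0 and a median of 0.09, with Hspa1a called. Its near-identical copy Hspa1b had 1768.9 in KO and 891.8 in WT Ly6Clow cells (log2 0.99), and 996.8 in KO and 300.4 in WT Ly6Chigh cells (log2 1.73). The other Hspa1b probe sets gave 1.13 and 1.17 in Ly6Clow, and since the copies can share signal they are not independent. Dnajb1, the Hsp40 partner of Hsp70, was at 0.45 with 897.0 in KO and 658.6 in WT, and Hsph1, its nucleotide exchange factor, at 0.44 with 778.6 in KO and 573.5 in WT. Hspa8, the constitutive Hsp70, had 8431.3 in KO and 7842.1 in WT (log2 0.10), and Hspa5, the chaperone of the endoplasmic reticulum, was at -0.02. The difference was thus largest for the inducible Hsp70 pair.

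The promoters of this pair are shown because both copies were higher in KO in each subset. Heat shock factors bind sites that hold the core GAANNTTC, which reads the same on both strands. The stretch of 30 bases around it is printed from RefSeq (GRCm38.p6), 5′ to 3′ on the gene's strand, with the core in capitals. It lies at chr17:34972242-34972271 for Hspa1a and at chr17:34959324-34959353 for Hspa1b, both on the minus strand, and the core begins 104 bases before the start of the gene.
Hspa1a: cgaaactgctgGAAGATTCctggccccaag
Hspa1b: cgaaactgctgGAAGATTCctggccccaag
The stretches are identical, as are 296 of the 300 bases in the 2 promoter windows (250 before to 50 after the start), each of which held 1 match. Of 27025 genes with such a window, 2442 held at least 1 match (9.04%), as did 10 of 19 genes of the heat shock list. A match is only a run of letters and says nothing of binding in these cells.

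Type I interferon response genes had 15 of 22 kept genes above 0, 0 called and a median log2 of 0.18, which was also 0.18 in Ly6Chigh. Ifit3, an antiviral effector, had 219.2 in KO and 117.5 in WT Ly6Clow cells (log2 0.90), and 1086.4 in KO and 838.0 in WT Ly6Chigh cells. Oas2, a sensor of double-stranded RNA, was at 0.51 with 274.5 in KO and 193.2 in WT. Ifi47, an interferon-inducible GTPase, was at -0.48 with 438.3 in KO and 611.6 in WT. Irf7, the regulator of the response, had 367.0 in KO and 300.6 in WT (log2 0.29). Most members thus lay slightly above 0, with Ifit3 alone at 1.5-fold.

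Genes of cholesterol synthesis and uptake lay below 0 in KO Ly6Clow monocytes. Of the 17 on the array, 13 were kept, 0 lay above 0 and the median log2 was -0.32, against 42.9% above 0 over all genes. In the Ly6Chigh pair 8 of 14 kept genes lay above 0 and the median was 0.02. None of the 13 fell 2-fold. Idi1, an isomerase of the isoprenoid pathway, had 297.4 in KO and 479.4 in WT Ly6Clow cells (log2 -0.69), against 274.6 in KO and 260.6 in WT Ly6Chigh cells. Its other kept probe set gave -0.67. Srebf2, the transcription factor that turns this pathway on, had 132.8 in KO and 191.6 in WT (log2 -0.53), and Sqle, the squalene epoxidase, 137.9 and 197.2 (log2 -0.52). For each of these genes the WT Ly6Clow signal was the highest of the 4 arrays. Cyp51, a sterol demethylase, was at -0.52 and Stard4, a cholesterol carrier, at -0.48. Hmgcs1, an early enzyme of the pathway, had 918.0 in KO and 1073.3 in WT (log2 -0.23). Members whose brighter signal stayed under 100 were not kept. Of these, Mvd, the mevalonate decarboxylase, had 76.1 in KO and 53.9 in WT, Lss, the lanosterol synthase, 90.1 and 86.2, and Dhcr7, the last reductase of the pathway, 75.5 and 89.2, while Mvk was Absent on both arrays. With 32 added to each signal the list's median was -0.22.

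Most lists of other functions had medians near that of all genes. Osteoclast lineage genes had 5 of 12 kept genes above 0 and a median of -0.06. MHC class II presentation had 2 of 9 above 0 (median -0.08), Fc and complement receptors 6 of 11 (0.02) and lipid handling genes 9 of 17 (0.02). Replication genes had 5 of 11 above 0 (-0.04), immunoproteasome and class I loading genes 7 of 15 (-0.02), and chemokine receptors 3 of 5 (0.02). None of the members of these lists differed 1.5-fold except Ccrl2, which is also a chemokine receptor by family. Glycolysis genes had 9 of 16 above 0 (0.02), with Pfkl, a phosphofructokinase, at 0.80 on signals of 113.6 in KO and 65.3 in WT and Pkm, the pyruvate kinase, at 0.59. Genes of the Bcl2 family, which set the threshold for apoptosis, had 6 of 10 above 0 (0.01). Bcl2, its founding survival gene, had 1028.8 in KO and 1916.8 in WT Ly6Clow cells (log2 -0.90), and 124.7 in KO and 230.2 in WT Ly6Chigh cells. Its other 4 kept probe sets gave -0.56 to -0.10, so all 5 were lower in KO Ly6Clow cells but to different degrees. Bak1, which permeabilises mitochondria in apoptosis, was at -0.60. Alternative activation genes had 4 of 9 above 0 (-0.07), with Retnla and Chil3 at opposite ends and Pdcd1lg2, the PD-1 ligand PD-L2, at 0.59. Among chemokine ligands 4 of 6 kept genes lay above 0, Ccl3 and Ppbp were called, and the median was 0.25, against 0.42 for the 8 genes kept in Ly6Chigh. Of the mitosis genes 2 were kept, Pttg1 at -0.93 and Kif23 at 0.37 (median -0.28).

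Glucocorticoid-inducible genes had 5 of 12 above 0 and a median of -0.05. Ddit4, an inhibitor of mTORC1, had 1293.4 in KO and 2042.4 in WT Ly6Clow cells (log2 -0.66), and 295.6 in KO and 577.4 in WT Ly6Chigh cells (-0.97). Fkbp5, a co-chaperone of the glucocorticoid receptor, had 152.5 in KO and 230.7 in WT Ly6Clow cells (log2 -0.60), and 161.4 in KO and 308.2 in WT Ly6Chigh cells (-0.93). Both were lower in KO in each subset, while Tsc22d3, another gene of the list, was at -0.12 with 3527.0 in KO and 3822.8 in WT and Per1, a clock gene, at 0.21.

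Markers of other cell types also differed between the Ly6Clow arrays, and members of the same list could go opposite ways. Of 16 platelet and megakaryocyte markers on the array, 12 were Present in KO and 9 in WT Ly6Clow cells, with summed signals of 1518.1 in KO and 1050.2 in WT. The sums in Ly6Chigh cells were 723.7 in KO and 594.3 in WT. The 5 kept members were Ppbp, Pf4, Itga2b, Itgb3 and Vwf, with 4 above 0 and a median of 0.38. Pf4, a platelet chemokine, had 283.6 in KO and 220.2 in WT, but Itga2b, the platelet integrin alpha chain, had 93.9 in KO and 106.2 in WT. Gp9, a subunit of the platelet receptor for von Willebrand factor, was Present in KO at 50.5 and Absent in WT at 9.8, and Treml1 was Absent on both arrays. The part of platelet RNA in the higher signals of Ppbp, Pecam1, Gng11, Clu and Lpp was not tested. Endothelial markers had 3 of 15 Present in KO and 7 in WT, with summed signals of 701.4 in KO and 474.1 in WT. Pecam1 and Vwf were the 2 kept members, while Cdh5, the cadherin that defines endothelium, had 12.3 in KO and 12.8 in WT, and Tek and Tie1 were Absent on both arrays. These defining genes were at or near background in both genotypes.

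B cell markers had 7 of 14 Present in KO and 10 in WT Ly6Clow cells, with summed signals of 1451.9 in KO and 1831.4 in WT. Of the 5 kept members, 2 lay above 0 and the median was -0.32. Cd79b, part of the B cell receptor, had 219.2 in KO and 274.4 in WT, whereas Cd22, an inhibitory B cell lectin, had 551.1 in KO and 481.9 in WT. Pax5 and Ebf1, the factors that define the B lineage, were Absent on both arrays. Plasma cell markers had 7 of 11 Present in KO and 9 in WT, with sums of 6602.6 and 6999.9. These sums include Xbp1, a factor that myeloid cells also express, with 5704.8 in KO and 5893.9 in WT. Jchain, the joining chain of secreted IgA and IgM, was Absent in KO at 9.0 and Present in WT at 28.3. Pou2af1, a B lineage coactivator, had 29.4 in KO and 94.1 in WT, under the signal minimum. The part of B and plasma cells in the lower signals of Ms4a1, Ly6d, Igha and the kappa chain was not tested. Of the plasmacytoid dendritic cell list, which also holds Ly6d, 6 of 11 were Present in KO and 7 in WT (sums 3112.4 and 2884.3), and its defining member Siglech was Absent on both arrays.

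Neutrophil markers had 6 of 10 Present in KO and 5 in WT Ly6Clow cells, with sums of 2151.6 and 2563.1. S100a8 and S100a9, calcium-binding proteins abundant in neutrophils and in Ly6Chigh monocytes, had 398.9 and 217.3 in KO against 731.2 and 415.2 in WT. Cxcr2 and Lrg1 were Absent on both arrays, and Csf3r, the G-CSF receptor, had 885.4 in KO and 725.4 in WT (log2 0.29). Of 12 granule and precursor genes, 3 were Present in KO and 2 in WT, and Chil3 was the 1 kept member. Cd177, Ltf, Camp and Ngp, granule genes of neutrophils, were Absent on both Ly6Clow arrays. The Ly6Chigh markers F13a1, Vcan and Thbs1, each over 500 on both Ly6Chigh arrays, were at 42.9 or less on both Ly6Clow arrays, and the summed Ly6Chigh markers, which include Chil3, were 22318.0 in KO and 23996.6 in WT. Of these markers 3 of 10 kept genes lay above 0, with a median log2 of -0.04. F10, the gene of coagulation factor X and one of these markers, had 385.4 in KO and 237.0 in WT Ly6Clow cells (log2 0.70), and its other kept probe sets gave 0.25 and 0.27. In Ly6Chigh cells F10 had 947.6 in KO and 876.2 in WT (log2 0.11). The part of such cells in the lower Chil3 and Slpi signals was not tested beyond these values. No T cell, NK cell or eosinophil, basophil and mast cell marker reached 100 on a Ly6Clow array, with sums of 89.1, 148.3 and 136.5 in KO against 115.4, 171.2 and 113.0 in WT. Erythroid markers had 1 of 12 Present in KO and 2 in WT, red pulp macrophage markers 8 of 16 and 11, and conventional dendritic cell markers 5 of 12 and 6.

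Set beside the Ly6Chigh pair, 11 of the 20 called genes were also kept there, and 9 of the 11 had the same sign. The exceptions, Retnla and Tsc22d1, were close to 0 in Ly6Chigh, at -0.029 and -0.0038. Over all 6581 genes kept in both pairs the sign was shared by 61.4%. At 1.5-fold, 53 of the 70 higher genes were kept in Ly6Chigh, 47 had the same sign there and 12 reached 1.5-fold. Of the 60 lower genes 49 were kept, 39 had the same sign and 15 reached 1.5-fold. Genes at 1.5-fold in both subsets were thus 12 higher (0.182% of 6581) and 15 lower (0.228%), and 1 went opposite ways (0.0152%). The genes named from here on in this comparison were chosen after their values were seen.

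The 12 higher in KO in both subsets were Amz1, Atf3, Bzw2, Ccdc69, Erdr1, Hspa1a, Hspa1b, Ide, Ifi213, Mapk6, Mefv and Nfil3. Erdr1, a gene of the pseudoautosomal region, had 1059.8 in KO and 555.4 in WT Ly6Clow cells (log2 0.93), and 571.4 in KO and 311.3 in WT Ly6Chigh cells. Nfil3, a basic leucine zipper repressor, had 1146.7 in KO and 708.0 in WT Ly6Clow cells (log2 0.70), and 1522.8 in KO and 979.0 in WT Ly6Chigh cells. Mefv, the inflammasome protein pyrin, had 279.6 in KO and 168.9 in WT Ly6Clow cells (log2 0.73), and 1109.3 in KO and 731.7 in WT Ly6Chigh cells. In all of these both KO arrays lay above the WT array of the same subset. The 15 lower in KO in both were Bcl2, Cd24a, Cdkn2c, Ddit4, Fkbp5, Havcr2, Hmga2-ps1, Mat2b, Nnt, Plaat3, Pttg1, S100a8, S100a9, Slc36a1 and Wdfy1. S100a8 and S100a9, which form calprotectin, had log2 values of -0.87 and -0.93 in Ly6Clow and of -1.19 and -0.85 in Ly6Chigh. The gene that went opposite ways was Rps27, a ribosomal protein gene.

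**Figure D4:**
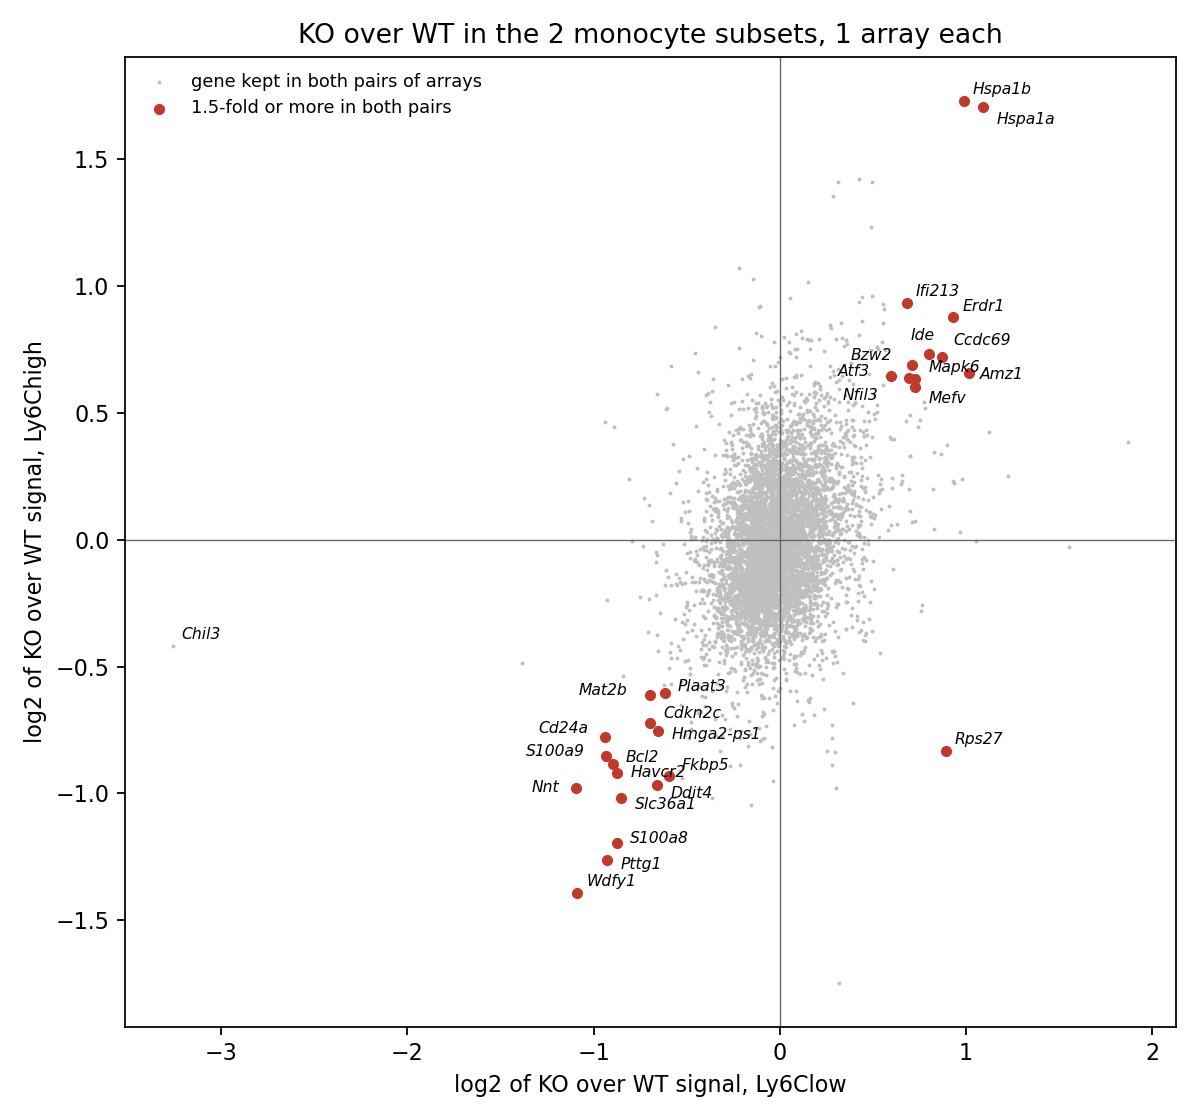
Log2 of KO over WT signal in Ly6Clow (horizontal axis) against Ly6Chigh monocytes (vertical axis) for the 6581 genes kept in both pairs, with genes at 1.5-fold in both pairs in red. Among the red points Hspa1a and Hspa1b lie furthest up, Wdfy1 lies furthest down, and Rps27 is the 1 with opposite signs in the pairs.

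Several genes that differed lie near the deleted locus. The strain labels of KO and WT differ, and the part of strain sequence around the deletion was not tested. Of the 50 kept genes on each side of Mir146 in the RefSeq order of chromosome 11, 5 of 100 were lower in KO at 1.5-fold (5%), against 55 of 6826 kept genes elsewhere (0.806%). None of the 100 was higher at 1.5-fold, against 70 elsewhere (1.03%). Among genes also kept in Ly6Chigh, 3 of 98 were lower in both subsets (3.06%), against 12 of 6483 elsewhere (0.185%). The median size of the log2 difference was 0.129 among the neighbours and 0.118 elsewhere.

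Pttg1, which encodes securin, the guard of sister chromatid cohesion, is the first kept gene on one side of Mir146. It had 1484.0 in KO and 2825.6 in WT Ly6Clow cells (log2 -0.93), and 988.5 in KO and 2372.6 in WT Ly6Chigh cells. Its other kept probe sets gave -0.13 and 0.38 in Ly6Clow, so the difference there rested on the brightest. Havcr2, which encodes the inhibitory receptor TIM-3, lies at place 10 on that side and had 561.7 in KO and 1028.3 in WT Ly6Clow cells (log2 -0.87), and 121.7 in KO and 230.1 in WT Ly6Chigh cells. Mat2b, a subunit of the enzyme that makes S-adenosylmethionine, lies on the other side, with 632.8 in KO and 1025.5 in WT Ly6Clow cells (log2 -0.70) and 619.8 in KO and 948.4 in WT Ly6Chigh cells. These 3 were lower on both KO arrays, but the authors' deposited table gave Mat2b as not changed in both pairs. Jade2 and its neighbour Cdkn2aipnl, at places 34 and 35, were at -1.21 and -0.73 in Ly6Clow, and Cdkn2aipnl was at -0.02 in Ly6Chigh. Just past the window, Tnip1 (place 52), Ccdc69 (53) and Slc36a1 (55) were at 0.70, 0.87 and -0.85 in Ly6Clow. Slc36a1 too was given as not changed in both pairs by the authors' deposited table.

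**Figure D5:**
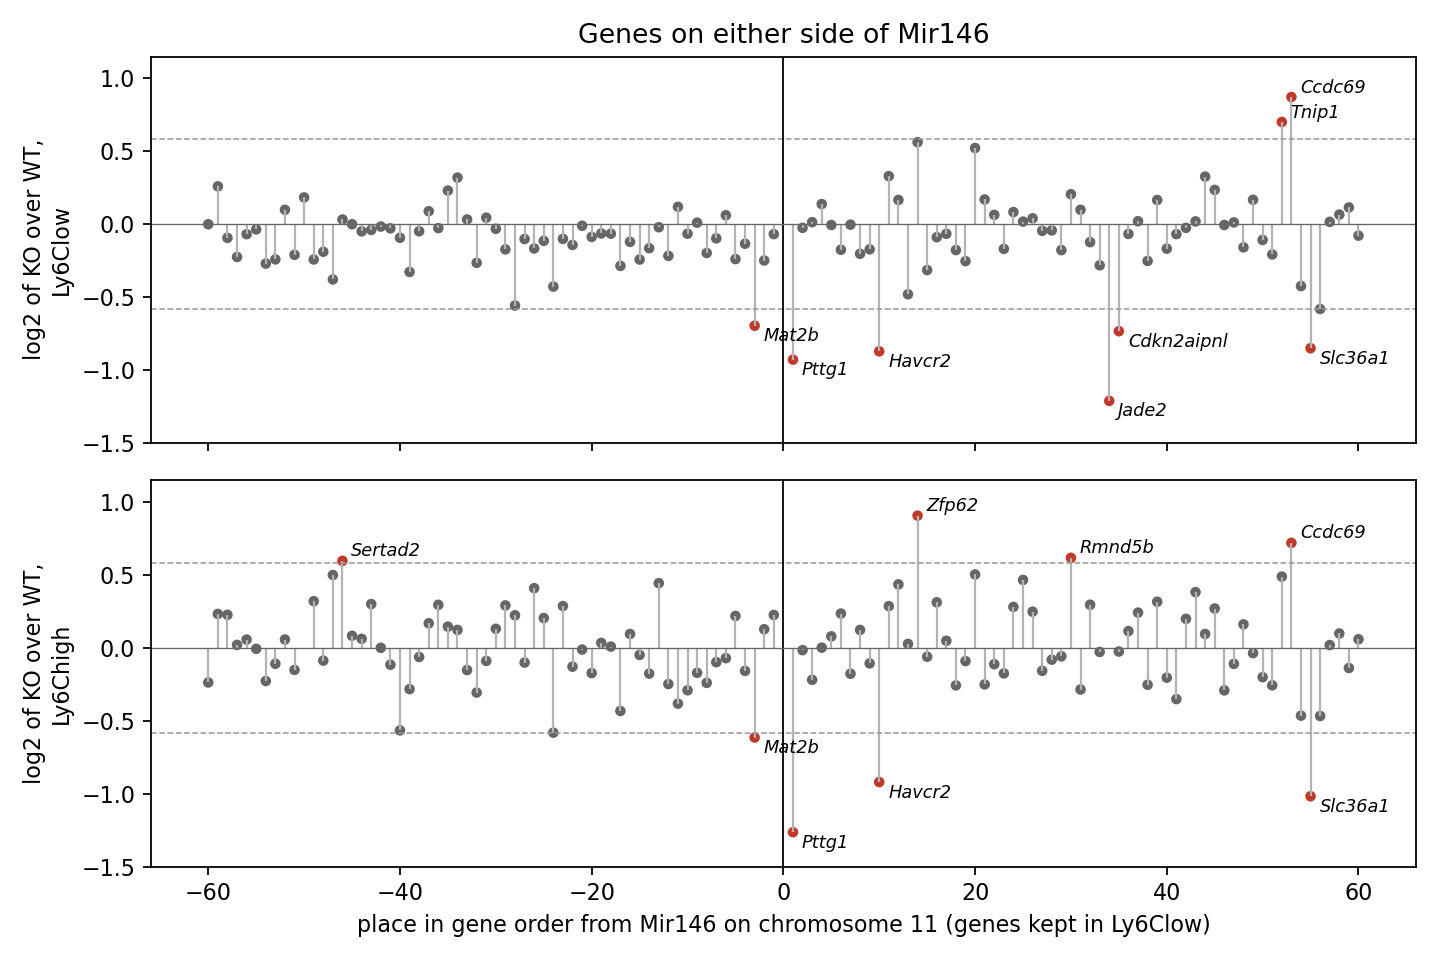
Log2 of KO over WT signal in Ly6Clow (upper panel) and Ly6Chigh (lower panel) for the kept genes on either side of Mir146, by place in gene order on chromosome 11, with dashed lines at 1.5-fold and genes past them in red. Pttg1, Havcr2, Mat2b and Slc36a1 lie below the lower line in both panels.

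The authors' deposited table compared the same arrays and called 1040 probe sets increased, 715 decreased and 43346 not changed. By the authors' deposited table, 19 of the 20 called genes and 59 of the 66 probe sets at 2-fold had a change call in the direction found here. Among kept genes the authors' deposited table called 187 increased and 328 decreased. It gave the same call for 47 of the 70 genes higher at 1.5-fold and for 31 of the 60 lower ones.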

How the data were processed

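RNA of sorted splenic monocytes was hybridised to 4 Affymetrix GeneChip Mouse 430_2 arrays, 1 per group, per the labels. Expression Console 1.2.1 produced the raw data per the labels' design text, and the submitters' processing notes list GCOS. The deposited signal intensities are linear and were scaled per array by the authors; which algorithm made them is not stated there, and a second deposited table held the same 180404 values (0 differed). The deposited table also gave detection p-values, not used here, and detection calls, which were. The authors' deposited table further held a score, a change call and a signed fold for pairs of arrays, and only the change calls were used.

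Of 45101 probe sets, 34958 had 1 gene symbol, 932 several and 9211 none. Symbols were updated through a RefSeq table of GRCm38.p6, used for names, gene order and printed sequences, with 34754 matches. For each gene the probe set brightest on average across the arrays was used. Log2 ratios used no offset (Python 3.11.15, pandas 2.3.3, numpy 2.4.6). Where the dimmer signal was not called Present, the fold is a bound taken against that signal or, if higher, against the 95th percentile of signals called Absent on its array, a choice made after the data were seen. Genes named are those called at 2-fold, up to 10 each way with every kept probe set at 1.5-fold, up to 4 per list at 1.5-fold, and a preset group (Traf6, Irak1, Relb, Itgam, Nr4a1, Cx3cr1, Ccr2, Hspa1a, Hspa1b, Il1b, Tnf, Nnt, Wdfy1, and a gene not reported here). Beyond it, genes that show a list's range, probe set disagreement, marker levels, both subsets or the neighbours of Mir146 were named after their values were seen. The genes, the 36 gene lists and the rules were chosen with earlier results of these data known. No test between the groups was possible, and the number of arrays limits the precision. Alternatives were median centring, quantile normalization, an offset of 32, the mean of all probe sets, other signal minimums and other uses of the detection call.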

Additional observations from a re-analysis of the deposited data

Results flagged for a closer look

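With 1 array per group, differences between the subsets were not tested. Of the 11 genes called in Ly6Clow and kept in both pairs, Retnla and Tsc22d1 had opposite signs in the pairs, and Rps27 was the 1 gene that differed 1.5-fold in opposite directions. Rps27 was at a log2 of 0.89 in Ly6Clow, with 215.3 in KO and 115.9 in WT, and at -0.83 in Ly6Chigh, with 104.3 in KO and 185.7 in WT. Retnla was at 1.55 in Ly6Clow and -0.029 in Ly6Chigh, and Tsc22d1 at 1.05 and -0.0038. Both Ly6Chigh values were close to 0 and above the median of -0.035 over the kept genes of that pair. They thus show almost no difference there rather than a fall. The authors' deposited table gave Rps27 as not changed in both pairs. Other genes lay farther apart between the pairs than Tsc22d1, such as Chil3 (-3.26 in Ly6Clow and -0.42 in Ly6Chigh), Ctla2a (1.87 and 0.38) and Nup155 (-0.94 and 0.46). Of these, Nup155 too was given as not changed in both pairs by the authors' deposited table.

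Outside the genes with a symbol, 12 kept probe sets with no gene symbol differed 2-fold in Ly6Clow, 8 higher and 4 lower in KO. The one with the largest ratio had 161.8 in KO and 50.7 in WT Ly6Clow cells (log2 1.67), and 66.2 in KO and 35.2 in WT Ly6Chigh cells. One of the lower ones had 172.4 in KO and 367.2 in WT Ly6Clow cells (log2 -1.09), and 119.9 in KO and 277.5 in WT Ly6Chigh cells.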

How the results depend on the processing

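The count of called genes, 20 as given, lay between 15 and 23 under every alternative except the one with no signal minimum, where 323 were called, 155 higher and 168 lower. The 1.5-fold count of 130 was 851 without the minimum and 76 with a minimum of 200, and the number of called genes with the same sign in Ly6Chigh, 9 as given, was 99 without it, since more or fewer dim genes then enter. With an offset of 32, under which 7670 genes passed the filter against 6926, 8 genes were called higher and 7 lower, so 53.3% of calls were higher, against 65% as given. Of the 20 genes, 12 were called there too, while Amz1 (0.78), Ccl3 (0.9997), Hspa1a (0.999), Ly6d (-0.86), Ms4a1 (-0.996), Tsc22d1 (0.98), Wdfy1 (-0.92) and Wnt6 (0.87) were not, and the other 3 calls were not among the 20. Clu, Ly6d, Wnt6 and Amz1 were not kept with a minimum of 200, nor Gng11 with Present required on both arrays. Hspa1b passed 2-fold with median centring (1.02) or the mean of its probe sets (1.10) and Kdm6b with median centring (1.01), and Amz1 did not with quantile normalization (0.98). Single genes were followed for 59 genes with a value as given. These were genes called at 2-fold or with every kept probe set at 1.5-fold, list members at 1.5-fold, and the preset group. Genes named only on other grounds were not followed. Among the 59, none that differed 1.5-fold as given changed sign in a value obtained under the 8 alternatives. Values near 0 could change sign, such as Cx3cr1 at -0.02, since median centring takes the median of -0.03 from each value. Of the 59 genes, 10 had no value under 1 stricter filter. The medians of 29 lists were each taken under the 8 alternatives. Of these values 13 moved by 0.1 or more and 219 did not. The NF-kB subunit list moved to 0.28 with the mean of probe sets. No paired analysis was possible because each group has 1 array and the labels give no replicate numbers, and for the same reason no replicate could be left out.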
